A study of Homo sapiens with 4 samples.

Results

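Crosslink sites in protein-coding sequence were described by where they lay along the reading frame: how far from the start codon, at which position of the codon and in how long an exon. They were taken from 2 lists of crosslink sites made by individual-nucleotide crosslinking and immunoprecipitation (iCLIP) of wild-type MCF10A cells, an established, non-transformed human breast epithelial cell line and the only one studied by iCLIP here. In 1 arm the RNA-protein complexes were immunoprecipitated with an antibody against PDCD4 after UVC irradiation of the cells, and in the other with an isotype control IgG. Each arm had 2 replicates, which are pooled in 1 list, so the lists hold no value per replicate, no test between them was run here, and every interval given here is a 95% interval that covers counting error only. A site entered when its position lay in the coding sequence (CDS) of the longest-CDS transcript of its labelled gene in GENCODE release 44 (GRCh38), whatever its score, the score being the number of cDNAs counted at the site. This rule kept 42447 of 270283 listed sites. Of the 158922 PDCD4 sites, 32071 were coding (20.2%, exact interval 20.0% to 20.4%), with 87864 cDNAs. Of the 111361 IgG sites, 10376 were coding (9.32%, 9.15% to 9.49%), with 27376 cDNAs.

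PDCD4 (programmed cell death 4) is a tumour suppressor protein whose MA3 domains bind the RNA helicase eIF4A, which unwinds mRNA ahead of the scanning ribosome, and it also binds RNA directly. A coding sequence is read in codons of 3 nucleotides from the start to the stop codon, and it is usually spread over many short exons, with a few genes holding most of theirs in a single very long exon. In iCLIP the cDNA tends to end next to the crosslinked nucleotide, so that the position of a site is resolved to the base and its place in the codon can be read.

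The coding PDCD4 sites lay in 6643 genes and the IgG sites in 4369, with 3400 genes in both. Most genes held few: 2401 genes had a single coding PDCD4 site, 1722 had at least 5, and 48 had at least 50. Plectin (PLEC), which links intermediate filaments to other parts of the cytoskeleton, held 868 PDCD4 sites (2.71% of them) and 190 of the 871 with a score above 5 (21.8%). In the IgG list PLEC held 25 sites (0.241%), none of them among the 118 with a score above 5. Values are therefore given with and without PLEC where it moved them. Sites of a gene share its RNA and are not independent, and 27.4% of PDCD4 sites had another PDCD4 site of the same gene within 5 nt of the transcript, against 10.9% of IgG sites. RNA abundance was not analysed here, so a gene with many sites may be an abundant RNA. By the study's methods, positions crosslinked in IgG were taken out of the PDCD4 data ahead of peak finding, and 166 coding positions stood in both lists.

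A site with a high score, outside PLEC, is shown first for each list and codon position. Such sites carry what the rest of the text counts: a base within a codon, at a distance from the stop codon and from the exon end. Each sequence is the RNA-sense DNA strand of the GENCODE transcript, 5′ to 3′, and the capitals mark the codon that holds the site. The site is the capital base numbered by the codon position given with each name.
HSP90AA1, PDCD4, codon position 1: gaagaaaaggaaGACaaagaagaagaa
KRT7, PDCD4, codon position 2: tccatccggaccGCAtccgccagtcgc
VIM, PDCD4, codon position 3: gatgagattcagAATatgaaggaggaa
HIGD2A, IgG, codon position 1: gccgccctcaccTACggcctctactcc
MT-CO1, IgG, codon position 2: ttcattcactgaTTTcccctattctca
ACTB, IgG, codon position 3: tccggtgacgggGTCacccacactgtg

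The HSP90AA1 window lies at chr14:102084930-102084956 on the minus strand, in exon 6 of the gene for the inducible cytosolic HSP90 chaperone. Its site had 30 PDCD4 cDNAs at codon 362 of 855 and lay 263 nt from the exon end. The VIM window, in exon 7 of the gene for the intermediate filament protein vimentin, lies at chr10:17235259-17235285 on the plus strand. Its site had 37 PDCD4 cDNAs at codon 371 of 467, 116 nt from the exon end. The KRT7 window lies at chr12:52248716-52248742 on the plus strand, in exon 9 of this keratin gene, and its site had 11 PDCD4 cDNAs at codon 460 of 470. These are not the highest PDCD4 scores, since chromosome 8 was left out of the choice and its gene PLEC held the top coding score (42 cDNAs). Each window also had to lie within 1 exon, and each gene was used once. Of the 11 PDCD4 sites at codon position 2 with a score above 10, 4 lay outside PLEC. The 3 sites shown for PDCD4 had no score in the IgG list. Since positions crosslinked in IgG were taken out of the PDCD4 data, this was largely set in advance. Among the IgG windows, HIGD2A (chr5:176389348-176389374, plus strand, exon 2), which encodes an inner mitochondrial membrane protein, had 10 IgG cDNAs at codon 62 of 107. MT-CO1 (chrMT:7080-7106, plus strand), a mitochondrially encoded subunit of cytochrome c oxidase, had 9 IgG cDNAs at codon 397 of 514. The window in ACTB, which encodes β-actin, lies at chr7:5528594-5528620 on the minus strand in exon 4, and its site had 8 IgG and 2 PDCD4 cDNAs at codon 159 of 376. From the site onwards the VIM and KRT7 windows read TAT and CAT, and the HIGD2A and ACTB windows TAC and CAC, which are the 4 trinucleotides with the largest excess at the sites of both lists. The MT-CO1 window reads TTC, the fifth in that order, and the HSP90AA1 window GAC.

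Along the CDS the sites of both lists were spread almost evenly. Relative position runs from 0 at the start codon to 1 at the stop codon, and its median was 0.497 (0.491 to 0.503) for PDCD4 sites and 0.519 (0.511 to 0.527) for IgG sites. Without PLEC the PDCD4 median was 0.490 (0.485 to 0.496) and the IgG median stayed at 0.519. In deciles of the CDS, the PDCD4 share ranged from 9.52% in the ninth to 10.9% in the last, and the IgG share from 8.98% in the second to 12.05% in the last. Few sites of either list lay within 62 nt of an exon's 3′ end (described with the exons). CDS positions at least 62 nt upstream of the exon end are called reachable, as a name for where the sites lay and not for a cause, and their spread over deciles, gene by gene and weighted by each gene's number of sites, is set beside the sites. The shares of sites count all sites, reachable or not.

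**Figure D1:**
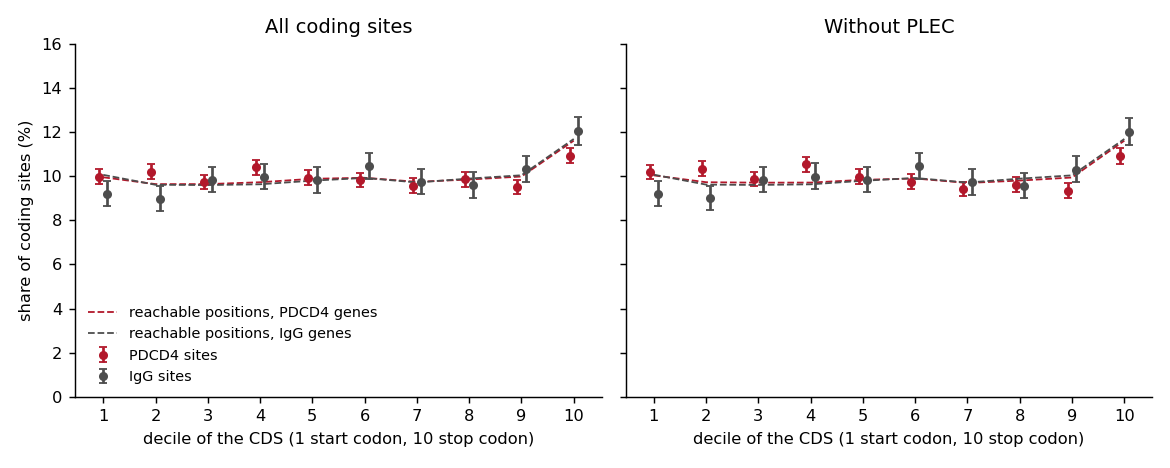
Share of coding sites (y axis, percent) in each decile of the CDS from the start codon to the stop codon (x axis) for the PDCD4 and IgG lists, with all genes (left) and without PLEC (right). Points are shares with exact 95% intervals, which cover counting error only, and dashed lines are the shares of reachable positions in the same genes; the last decile is the highest in both lists and in the lines.

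The first decile held 9.98% of PDCD4 sites (9.66% to 10.3%), where 9.95% of reachable positions lay. The last decile held 10.9% (10.6% to 11.3%) against 11.6% of reachable positions. In the IgG list the first decile held 9.19% (8.65% to 9.77%) against 10.1% of reachable positions, and the last 12.05% (11.4% to 12.7%) against 11.7%. These shares count all sites, of which 95.5% (PDCD4) and 93.6% (IgG) were reachable, so differences this small from the reachable shares are not resolved. At the start of the CDS the share of PDCD4 sites was thus near that of its reachable positions, and the IgG share was lower by a margin that is not resolved. With equal weight for each gene with at least 5 coding sites, the median of the gene medians was 0.486 (0.477 to 0.496) over 1722 genes for PDCD4 and 0.531 (0.511 to 0.543) over 460 genes for IgG. In the 44 genes with at least 15 coding sites in each list, the PDCD4 median lay closer to the stop codon than the IgG median in 15, and the median difference (PDCD4 minus IgG) was -0.0593. The range of single genes was wide, from -0.321 in MT-CO3, a cytochrome c oxidase subunit, and -0.284 in HSPA8, which encodes the constitutive HSP70 chaperone, to 0.208 in DYNC1H1, the heavy chain of cytoplasmic dynein.

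The density of PDCD4 sites was compared directly before and after the start and the stop codon. The 4305 genes used had a coding site in either list, a complete CDS of at least 600 nt and at least 100 nt of untranslated region on either side. Choosing genes by a coding site raises the CDS density relative to the untranslated regions. The CDS and the untranslated regions are therefore not compared on equal terms. There were 2.36 PDCD4 sites per 1000 reachable nt (2.13 to 2.62) in the last 50 nt of the 5′ untranslated region. The first 50 nt of the CDS had 2.60 (2.35 to 2.86). At the other end, the last 50 nt of the CDS held 2.67 (2.45 to 2.90) and the first 50 nt after the stop codon 2.61 (2.40 to 2.84). The intervals on either side of each codon overlapped. Over whole regions of the same genes the PDCD4 density was 1.63 in the 5′ untranslated region, 2.61 in the CDS (2.50 without PLEC) and 1.74 in the 3′ untranslated region. The IgG density was 0.536, 0.829 and 0.992 in the same order, highest in the 3′ untranslated region. Towards the stop codon the IgG density went from 0.722 (0.626 to 0.828) between 300 and 200 nt before it to 1.03 (0.893 to 1.18) in the last 50 nt of the CDS and 1.39 (1.23 to 1.55) between 50 and 100 nt after it. The PDCD4 density in the first and the last of these windows was 2.32 (2.15 to 2.51) and 3.06 (2.83 to 3.31). The stop codon itself held 47 PDCD4 and 18 IgG sites.

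Within the codon, sites of both lists were least frequent at the middle position. Of the PDCD4 sites, 37.1% (36.6% to 37.7%) lay at position 1, 27.5% (27.03% to 28.01%) at position 2 and 35.3% (34.8% to 35.9%) at position 3. The IgG shares were 36.7% (35.8% to 37.7%), 29.03% (28.2% to 29.9%) and 34.2% (33.3% to 35.2%). Without PLEC the PDCD4 share at position 2 was 27.6%. The bases at the sites have their own preference for positions of the codon, and the shares were therefore set beside those given by the bases alone: for each site, how often the same bases fall at each codon position among the reachable CDS positions of all genes with a coding site. From the 3 bases beginning at the site, 35.6%, 29.4% and 34.97% would be at positions 1, 2 and 3 for PDCD4, and 35.7%, 29.7% and 34.6% for IgG. A window of 5 bases gave 29.2% at position 2 for PDCD4 and 29.4% for IgG. The IgG interval at position 2 holds both of these values, and the PDCD4 interval lay below them. At position 1 the intervals of both lists lay above the values from 3 bases and from 5 bases (35.66% for PDCD4 and 35.69% for IgG). Both lists thus departed from their bases at some position. The sites of a gene are not independent, which these intervals do not cover.

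**Figure D2:**
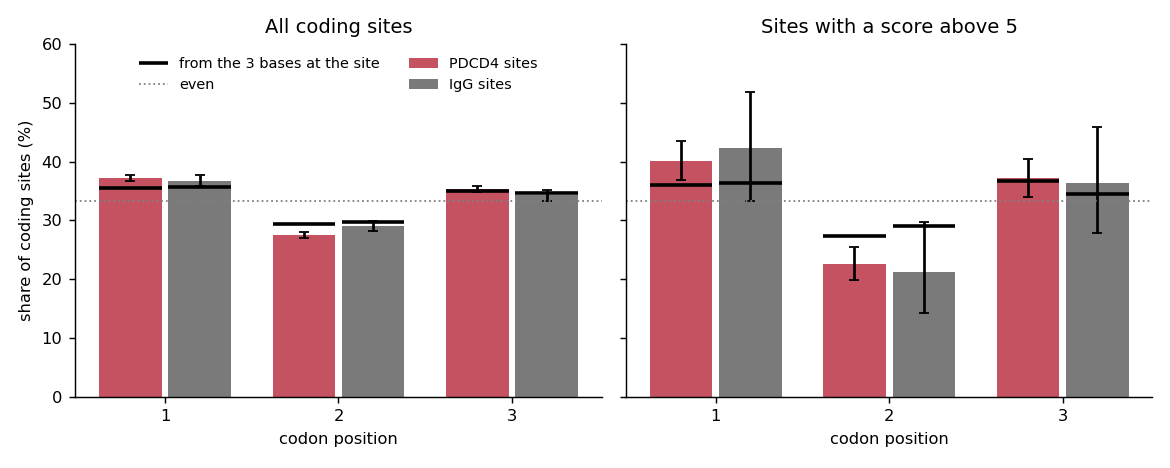
Share of coding sites (y axis, percent) at each position of the codon (x axis) for all coding sites (left) and for sites with a score above 5 (right). Bars are the PDCD4 and IgG lists with exact 95% intervals for counting error, black lines are the shares given by the 3 bases from the site onwards, and the dotted line is an even spread; position 2 is the lowest in every case.

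The base next to the site showed the strongest departure from the CDS. The nucleotide after the site was A at 47.1% of PDCD4 sites and G at 4.15%, where 26.0% and 27.1% of CDS bases are A and G. The IgG list had A at 44.04% and G at 3.91% of its sites. At the site itself U and C made up 34.3% and 33.2% of PDCD4 bases and 35.97% and 31.9% of IgG bases, against 21.1% and 25.8% in the CDS of the PDCD4 genes. Of the 64 trinucleotides that begin at the site, UAU was the most frequent relative to the CDS (6.98 times in the PDCD4 list and 6.17 times in the IgG list), followed by UAC (6.33 and 5.84), CAU (5.68 and 4.96) and CAC (4.76 and 4.26). The lowest was GGG (0.0447 and 0.0379). Over these 64 trinucleotides the log2 ratios of the lists had a correlation of 0.992, which is a description of 2 lists made by the same procedure from the same cell line. Each trinucleotide has its frame: 1643 of 2661 PDCD4 sites at CAU were at codon position 3, while 982 of 1894 at UAC were at position 1, where UAC is a tyrosine codon.

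Position 2 was rarer at sites with more cDNAs. In the PDCD4 list the share at position 2 was 29.3% (27.4% to 31.3%) at a score of 1. It was 28.1%, 27.2% and 26.6% at scores of 2, 3 and 4 to 5, and 23.4% (20.5% to 26.5%) at scores of 6 to 10. The IgG share also went down, from 31.1% (26.2% to 36.3%) at a score of 1 to 29.6%, 28.5% and 28.5% at scores of 2, 3 and 4 to 5. Of the 76 PDCD4 sites with a score above 10, 11 lay at position 2 (14.5%, 7.45% to 24.4%). For all 871 PDCD4 sites above a score of 5 the share was 22.6% (19.9% to 25.5%), where the 3 bases at the sites gave 27.3%, and without PLEC it was 24.1% (20.9% to 27.5%) against 27.7%. From 5 bases the values were 26.5% and, without PLEC, 26.7%, which lies within the interval of that set. The 118 IgG sites above a score of 5 had 21.2% (14.2% to 29.7%) at position 2 against 29.04% from their 3 bases, an interval too wide to separate them from the PDCD4 sites. Among the genes with at least 100 PDCD4 sites, MYH9, the heavy chain of non-muscle myosin IIA, had the lowest share at position 2 (14 of 105 sites), and SRRM2, a nuclear speckle and splicing protein, had the highest (62 of 149), more than at either of its other positions (37 and 50). Of the IgG sites of these genes, 7 of 18 in MYH9 and 22 of 53 in SRRM2 lay at position 2.

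Distance to the exon end divided the CDS more sharply than position along it. In exons other than the last, the PDCD4 density was between 0.210 and 0.343 sites per 1000 CDS nt at each distance below 60 nt from the 3′ end of the exon. It was 2.56 (2.45 to 2.68) at 60 to 69 nt, 3.49 (3.35 to 3.63) at 70 to 79 nt and 2.84 (2.79 to 2.89) from 120 nt on. The IgG density followed the same course, with 0.131 (0.102 to 0.164) at 50 to 59 nt, 1.19 (1.10 to 1.29) at 60 to 69 nt and 1.52 (1.41 to 1.63) at 70 to 79 nt. In all, 95.5% of PDCD4 and 93.6% of IgG sites lay at reachable positions, which make up 67.2% and 67.3% of the CDS of their genes. The step stood at the same distance in both immunoprecipitations, and its cause was not tested.

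**Figure D3:**
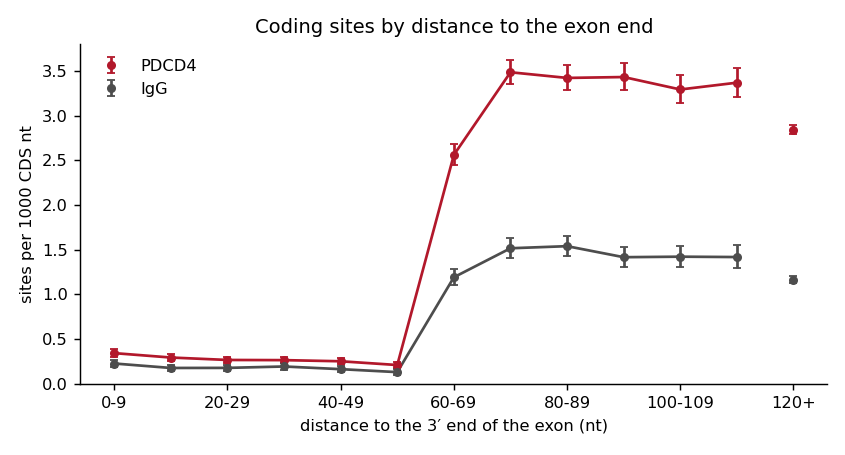
Coding sites per 1000 CDS nt (y axis) by distance of the site to the 3′ end of its exon in bins of 10 nt (x axis; the last point holds all distances from 120 nt), in exons other than the last. Points are the PDCD4 and IgG lists with exact Poisson 95% intervals; both are low up to the bin 50 to 59 nt, higher at 60 to 69 nt and highest between 70 and 120 nt.

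Exon length at the sites is given beside that of all and of reachable CDS positions. The median PDCD4 site lay in an exon of 215 nt (213 to 218), where the median CDS position of the same genes lies in one of 190 nt and the median reachable position in one of 227 nt. The IgG median was 219 nt (214 to 224), against 191 nt and 231 nt. Exons under 100 nt held 5.40% (5.16% to 5.66%) of PDCD4 sites, less than their 11.3% of the CDS and more than their 4.35% of reachable positions. Exons of at least 1000 nt held 24.3% (23.8% to 24.7%), more than their 20.7% of the CDS and slightly less than their 25.1% of reachable positions. Without PLEC these exons held 22.6% (22.1% to 23.0%), against 19.4% of the CDS and 23.6% of reachable positions. In the IgG list they held 25.6% (24.8% to 26.5%), against 21.7% and 26.3%. An excess of sites in long exons was therefore present relative to the whole CDS in both lists. The comparison with reachable positions is not like for like. It counts all sites, of which 95.5% (PDCD4) and 93.6% (IgG) were reachable. Differences from the reachable shares as small as these, in short or long exons, are therefore not resolved. The last exon, whose coding part ends at the stop codon, held 18.6% of PDCD4 sites and 20.4% of IgG sites, against 19.1% and 21.0% of reachable positions.

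Among high scores the picture depended on PLEC. Of the 871 PDCD4 sites above a score of 5, 32.5% lay in exons of at least 1000 nt, and 16.6% of the 681 that remained without PLEC. Their median relative position was 0.562 (0.524 to 0.593) with PLEC and 0.5004 (0.451 to 0.540) without it. Above a score of 10 there were 76 PDCD4 sites in 20 genes, 41 of them in PLEC. Their median position was 0.678 (0.613 to 0.756), none lay in the first decile (0%, up to 4.74%), and 42 lay in long exons (55.3%, 43.4% to 66.7%). The 35 sites outside PLEC had a median of 0.525 (0.422 to 0.651), and 1 of them lay in a long exon. No IgG coding site had a score above 10, and the 118 above 5 had a median position of 0.565 (0.469 to 0.631) with 24.6% in long exons.

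**Figure D4:**
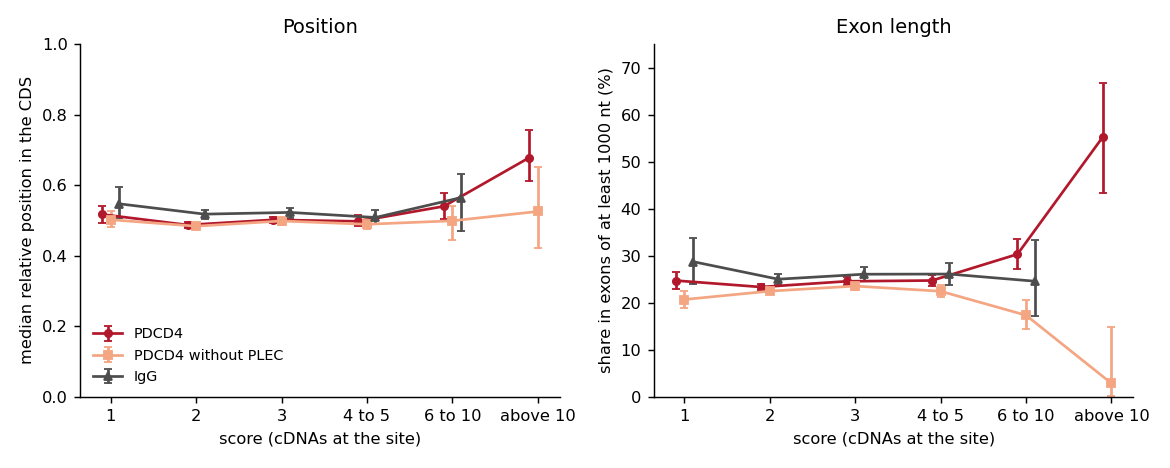
Median relative position in the CDS (left, y axis from 0 at the start to 1 at the stop codon) and share of sites in exons of at least 1000 nt (right, percent) by score class (x axis, cDNAs at the site). Lines are the PDCD4 list, the PDCD4 list without PLEC and the IgG list, with 95% intervals for counting error; above a score of 10 the share in long exons is 55.3% with PLEC and 2.86% without it.

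PLEC has a CDS of 14055 nt in 32 coding exons, and its last exon alone (7243 nt) holds 44.2% of the CDS. This exon, which encodes the C-terminal plakin repeats that bind intermediate filaments, held 562 of the 868 PDCD4 sites (64.7%) and 134 of the 190 with a score above 5. The exon before it (3381 nt), which encodes the coiled-coil rod, held 181 sites and 36 above 5. Per 1000 reachable nt these 2 long exons, pooled, had 77.9 PDCD4 sites (72.4 to 83.7) and the other coding exons of PLEC 45.1 (37.3 to 54.0). These intervals did not overlap. The 2 long exons differed, with 562 sites in 6219 reachable nt of the last and 181 in 3319 of the one before it. The pooled density therefore does not describe long exons as such. From the first to the last decile PLEC had 22, 48, 41, 50, 76, 108, 131, 158, 136 and 98 PDCD4 sites, the most in the eighth, and its median position was 0.673 against 0.568 for its reachable positions. The 25 IgG sites had a median of 0.775, and 22 of them lay in the long exons.

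The genes that follow, which also have a very long coding exon, had earlier medians than PLEC. AHNAK, a giant scaffold protein, has 98.1% of its 17673-nt CDS in a single exon, which held 303 of its 306 PDCD4 sites, with medians of 0.574 for PDCD4 and 0.570 for its 79 IgG sites. SRRM2 had 149 PDCD4 sites with a median of 0.405 and 53 IgG sites with a median of 0.368. Its long exon had 17.8 PDCD4 sites per 1000 reachable nt (14.7 to 21.3) and its other exons 36.3 (24.7 to 51.5). This is the reverse of the order in PLEC with its long exons pooled. FAT1, a protocadherin, had 106 PDCD4 sites with a median of 0.321, and 44 of them lay in its first coding exon, which holds 23.7% of the CDS. The 8 genes listed for giant coding exons (AHNAK, AHNAK2, SRRM2, MKI67, SON, MUC16, KMT2D and KMT2A) had 696 PDCD4 and 216 IgG sites together, with medians of 0.480 (0.433 to 0.531) and 0.466 (0.427 to 0.552). Long exons held 88.6% of the PDCD4 sites of this list, against 91.8% of its reachable positions.

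The other plakins, which like plectin tie the cytoskeleton to junctions and filaments, had far fewer sites than PLEC. MACF1, which joins actin to microtubules, had 71 PDCD4 sites and the latest median of all 48 genes with at least 50 (0.711, against 0.474 for its reachable positions), with 8 sites in exons of at least 1000 nt. This median depends on the longest-CDS transcript. Its exon 37 (5451 nt, 23.9% of the CDS, positions 0.207 to 0.447) held 1 of the 71 sites. Whether the MACF1 RNA of these cells contains this exon was not examined. DST (dystonin) had 69 with a median of 0.558, and DSP (desmoplakin) 70 with a median of 0.440, while the 24 IgG sites of DSP had a median of 0.684. All 7 listed plakins had sites in both lists, 1131 for PDCD4 and 91 for IgG, with medians of 0.655 and 0.702. Of all 20457 genes with a CDS in the annotation, expressed or not, 32.5% had a coding PDCD4 site and 21.4% an IgG site. Without PLEC the 6 others had 263 PDCD4 sites with a median of 0.541 (0.463 to 0.639) and 66 IgG sites with a median of 0.648 (0.512 to 0.745).

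Within single genes the sites gathered in some exons and left others nearly empty, which the even spread over all genes does not show. VIM had 109 PDCD4 sites and 3 IgG sites. Its first coding exon holds 40.2% of the CDS and 32 of the PDCD4 sites, while exon 7, with 15.8% of the CDS, held 38, so the median was 0.671 against 0.330 for reachable positions. HSP90AA1 had 211 PDCD4 sites, of which 53 lay in the fifth decile and 39 in the seventh, and its exon 6 held 54 sites in 12.4% of the CDS. None lay in its first decile, but this depends on the transcript: the longest CDS has 855 codons and the canonical one 733, on which the first decile held 10 of the 211 sites and the median was 0.465 in place of 0.541. Its paralogue HSP90AB1, the constitutive cytosolic HSP90, had 120, with 20 in the first decile and 28 in the fourth. HSPD1, the mitochondrial chaperonin HSP60, had the earliest median (0.202 over 66 PDCD4 sites, none in IgG), with 13 sites in the first decile and 19 in the second.

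**Figure D5:**
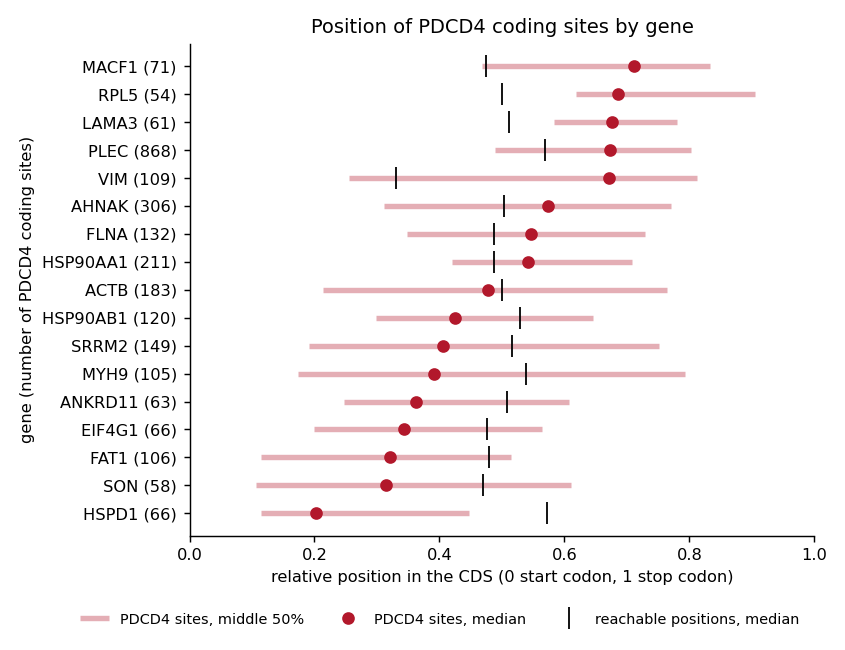
Relative position of PDCD4 coding sites (x axis, 0 at the start and 1 at the stop codon) in the 10 genes with the most sites and the 5 lowest and 5 highest medians among genes with at least 50, with the number of sites in brackets. Dots are medians, bars the middle 50% of sites and black ticks the medians of the reachable positions; medians run from 0.202 in HSPD1 to 0.711 in MACF1.

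The other early genes were SON (0.315, 58 sites), a nuclear speckle protein, FAT1, EIF4G1 (0.343, 66 sites), the scaffold that joins the cap-binding protein to eIF4A, and ANKRD11 (0.363, 63 sites), a chromatin regulator. Of the EIF4G1 sites, 24 lay in exon 10, which covers relative positions 0.149 to 0.319. The other late genes were RPL5 (0.685, 54 sites), a protein of the large ribosomal subunit, and LAMA3 (0.676, 61 sites), a laminin α3 chain. RPL5 had 26 of its sites in the seventh decile and 15 in the last, and LAMA3 had 11, 18 and 12 in the sixth to eighth. These genes were chosen for their medians, so the medians describe them and test nothing. Genes with near-identical copies (the actins, the HSP90 pair, keratins, and ribosomal protein and chaperonin genes with processed pseudogenes) share reads, and how these were counted is not given in the sources used here.

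By group, the pooled sites of intermediate filament genes departed from their reachable positions at both ends of the CDS, though not alike in every gene. The 16 listed intermediate filament genes (vimentin, lamins and keratins) had 362 PDCD4 sites in 13 of them and 44 IgG sites in 11. Among all annotated genes with a CDS, 32.5% had a PDCD4 and 21.4% an IgG coding site. The last decile held 20.2% of the PDCD4 sites of these 16 genes, where 11.8% of reachable positions lay, and the first held 8.56% against 14.4%. The IgG shares were near to these (20.5% in the last and 9.09% in the first). KRT81, a hair-type keratin, had 25 of its 49 PDCD4 sites in the last decile (14.4% of its reachable positions) and none in the first 4. VIM had 8 of 109 in the first (15.2% of reachable positions) and 16 in the last (7.14%). KRT7 had 12 of 61 in the first and 16 in the last, with 15.0% of its reachable positions in each. KRT5, a basal epithelial keratin, had 0 and 5 of 50, with 13.6% of reachable positions in each, and 10 IgG sites. The 12 actin cytoskeleton genes had 860 PDCD4 sites with a median of 0.512 (0.475 to 0.539) and 20.8% at codon position 2, against 156 IgG sites with 26.3% there. In this group ACTB had 183 PDCD4 sites spread over all deciles (10 to 24 in each), FLNA, the actin crosslinker filamin A, had 132, and SPTBN1, β-II spectrin, had 97 with a median of 0.545.

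The 14 matrix and receptor genes had 536 PDCD4 sites with a median of 0.533 (0.483 to 0.573) and 6.90% in the last decile, where 9.95% of reachable positions lay. Their 108 IgG sites had 12.04% there, against 10.6% of reachable positions. LAMA5, the laminin α5 chain, led them with 97 sites, and THBS1, thrombospondin-1, had 89 with none in the last decile. ITGB4, the integrin β4 that plectin binds in hemidesmosomes, had 46 with a median of 0.532. Of 90 ribosomal protein genes, 63 had a coding PDCD4 site and 50 an IgG site, where 32.5% and 21.4% of all 20457 genes with a CDS in the annotation, expressed or not, had one. These genes held 521 and 137 sites, with medians of 0.550 (0.491 to 0.599) and 0.518 (0.439 to 0.609). RPL3 had 31 PDCD4 sites, RPL4 25 and RPL19 20, with medians of 0.513, 0.343 and 0.846. The 12 translation factor genes had 331 PDCD4 sites with a median of 0.429 (0.381 to 0.510) and 89 IgG sites with a median of 0.534 (0.415 to 0.642). Among these, EEF2, the elongation factor that moves the ribosome along the codons, had 87 sites with a median of 0.574, EIF3A, the largest eIF3 subunit, had 40 (0.428), and PABPC1, the cytoplasmic poly(A)-binding protein, had 39 (0.303).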

How the data were processed

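iCLIP of MCF10A cells with PDCD4 antibody or isotype IgG, 2 replicates each, was analysed. The authors processed reads with iCount against the Ensembl release 88 genome and deposited 1 list of 1-nt sites per arm at a false discovery rate of 5%. The deposited score is a raw cDNA count, not normalized. The threshold on scores above 5 in the methods is not applied in the deposited lists. Replicates are pooled, so depth per replicate is unknown. Aligner settings are not given in the sources used here.

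Sites were placed, with strand, in the longest-CDS transcript of the labelled gene (GENCODE release 44, GRCh38, stop codon included). For 5699 of 7612 genes this is the MANE Select transcript, and 57 transcripts lack a complete 5′ CDS end. Of the listed sites, 4.77% (PDCD4) and 5.24% (IgG) had no label with a coding transcript. Shares have Clopper-Pearson, medians order-statistic and densities Poisson intervals. The functions were tested on simulated site placements. Named genes were the 10 (PDCD4) and 5 (IgG) with most coding sites, the 5 lowest and 5 highest medians among genes with at least 50 PDCD4 sites, and up to 4 per gene list with at least 20. MT-CO3, HSPA8 and DYNC1H1 were named after their values were seen, as the ends of a range. HIGD2A is named for its sequence. Members and lists were chosen with earlier results of these data known. Alternatives were the score threshold, weights by score or gene, the transcript, merged neighbours, and leaving out PLEC, the 10 largest genes, sites with several labels or mitochondrial genes. Versions were matplotlib 3.10.9, scipy 1.17.1, pandas 2.3.3 and numpy 2.4.6 under Python 3.11.15.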

Additional observations from a re-analysis of the deposited data

How the results depend on the processing

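Of 72 recomputed values, 51 stayed within the 95% interval of the value reported and 21 left it, as follows. The PDCD4 median of 0.497 was 0.562 for scores above 5, 0.503 with sites weighted by score, 0.490 without PLEC, 0.486 with equal weight for each gene, 0.489 with sites within 20 nt merged and 0.489 without the 10 largest genes. The IgG median of 0.519 was 0.565 for scores above 5 and 0.531 with equal weight for each gene. The share in the last decile was 10.6% for merged PDCD4 sites, and in the IgG list 16.1% for scores above 5 and 11.1% with equal weight for each gene. The share at codon position 1 was 40.2% (PDCD4) and 42.4% (IgG) for scores above 5. The PDCD4 share in exons of at least 1000 nt was 32.5% for scores above 5, 25.02% weighted by score, 22.6% without PLEC, 21.5% with equal weight for each gene, 24.8% with the canonical transcript and 22.0% without the 10 largest genes. The IgG share there was 24.6% for scores above 5 and 23.9% without the 10 largest genes. The cause of these shifts was not tested. No paired analysis was possible because each list pools its replicates, which also leaves the spread between replicates unknown. With 118 IgG sites above a score of 5, shares among them are imprecise (14.2% to 29.7% at codon position 2).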

Other observations

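The mitochondrially encoded proteins, subunits of the respiratory chain whose mRNAs are made without introns in the mitochondrial matrix, were the one listed group with about as many IgG as PDCD4 coding sites (203 in 12 of 13 genes against 199 in 10), although the IgG list has fewer coding sites in all. Among all annotated genes with a CDS, 21.4% had an IgG and 32.5% a PDCD4 coding site. In the mitochondrial group, scores above 5 were at 31 of the PDCD4 sites (15.6%) and 19 of the IgG sites (9.36%), against 2.72% and 1.14% of all coding sites. MT-CO1 had 55 PDCD4 and 51 IgG sites with medians of 0.489 and 0.461, and MT-ND5 19 and 40 with medians of 0.301 and 0.279. MT-CO2 had 32 and 16 with medians of 0.324 and 0.382, and MT-CYB 29 and 11 with medians of 0.673 and 0.280. These sites were described only, and no test was run on the pooled lists.

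By length of the CDS, the median relative position of PDCD4 sites was 0.529 (0.513 to 0.545) for a CDS under 1000 nt, 0.497 for 1000 nt to under 3000 nt, 0.474 (0.464 to 0.484) for 3000 nt to under 6000 nt and 0.513 (0.502 to 0.523) for 6000 nt or more. Without PLEC the longest class had 0.482 (0.470 to 0.495). The PDCD4 intervals of the shortest class and of the class from 3000 nt did not overlap. In the IgG list the medians of the classes, in the same order, were 0.535 (0.518 to 0.557), 0.517, 0.520 (0.501 to 0.538) and 0.513. The shortest class was thus the latest in both lists. The last decile held 15.003% of the PDCD4 sites of the shortest class, 8.95% of those from 3000 nt and 8.94% of those of the longest (8.60% without PLEC). Of reachable positions, 13.7%, 10.8% and 9.96% lay there.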
